A study of Mus musculus with 9 samples.

Results

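Tumours grown from the HDC-A and HDC-S cells of B16-F10, a mouse melanoma line, were set together against tumours of the HDC-M variant. All 9 arrays of the series entered the comparison, 6 from the modified lines and 3 from HDC-M. Per the labels, L-histidine decarboxylase (HDC) was altered to give 3 variants: HDC-A makes and releases less histamine, HDC-S makes and releases more, and the histamine capacity of HDC-M is unmodified. HDC-M is itself 1 of the introduced variants, so it is not stated to be the parental line. How the enzyme was changed in each variant, and the host and site of the tumours, are not given in the sources used here. Each group had 6 tumours, and RNA of randomly paired tumours was pooled, 2 tumours to a pool, which gave 3 pools and 3 arrays a group. Every pool carried Cy5 and was hybridised beside the same Cy3 reference, RNA of HDC-M cells grown in culture, with no dye swap. Every value for an array is therefore a log2 ratio of tumour over cultured HDC-M cells, and every difference is between such log2 ratios. Since each group is 1 variant, a property of that variant cannot be told apart from its histamine group. The tumours are bulk tissue, in which fewer cells of a type and less RNA per cell cannot be told apart.

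HDC is the enzyme that makes histamine from histidine, and histamine acts on a family of G protein-coupled receptors. Mast cells and basophils are its main stores, and melanoma cells are also known to make it and to carry its receptors. B16-F10 is a pigmented, metastasising melanoma line, and its melanosomes, the organelles that make melanin, are built and moved by a specialised set of enzymes and Rab proteins. The comparison asks which RNAs differ from HDC-M in one direction in both lines, where histamine capacity was lowered and where it was raised. A shared difference of this kind does not follow the order of the lines by histamine capacity.

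The 2 lines shared a small set of differences from HDC-M. Among the probes that passed in each line, the largest falls on average were those of the RIKEN transcript 1700113H08Rik (2.77-fold), of Trnp1, a nuclear protein gene (2.41-fold), and of Sytl2, a protein of granule tethering (1.83-fold). The largest rises were those of Ahr, the aryl hydrocarbon receptor (2.05-fold), of Pdzrn3, a ubiquitin ligase (1.83-fold), and of Enah, an actin assembly protein (1.80-fold). Gcnt1 and Galnt6, which build O-linked sugar chains, were 1.74-fold and 1.67-fold higher. Most of the other differences that passed were smaller: among the probes that passed in each line, the size on the log2 scale ran from 0.29 to 1.47 with a median of 0.55. Hdc itself did not pass, with a difference of -0.03.

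Of 41174 distinct probes, 26871 were kept, those whose tumour (Cy5) signal cleared the scanner's background mark on 3 or more arrays. Of these, 26867 gave a value in all 3 groups. In the average of HDC-A and HDC-S against HDC-M, 48 probes passed a limma adjusted p of 0.05, which is 0.179% of those tested, with 26 higher (0.0968%) and 22 lower (0.0819%). They name 44 genes, and 5 probes differed by more than 2-fold. Against HDC-M alone, 387 probes passed in HDC-A (1.44%) and 183 in HDC-S (0.681%). Passing in each line in one direction was met by 32 probes (0.119%), 16 higher and 16 lower (0.0596% each), which name 30 genes. A stricter test, which takes the larger p of the single-line tests before the adjustment, was passed by 2 probes (0.00744%), Galnt6 (adjusted p = 0.00872) and 1700113H08Rik (adjusted p = 0.00258). Both lines were compared with the same 3 HDC-M arrays, so chance errors of those arrays enter both differences in one direction.

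Together, the call on the average and the call in each line took 53 probes, 27 higher and 26 lower. Of these, 27 passed both calls, 21 passed the average only and 5 passed in each line only. At 50 of them the 6 modified arrays lay wholly outside the range of the 3 HDC-M arrays, which 5.87% of all tested probes also did, and which the choice of these probes by this contrast favours. An unadjusted p under 0.05 was found at 15.2% of measured genes, taking one probe for each, and 0.279% of genes passed on average. The median difference of all probes was 0.01.

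One array stood apart. HDC-M replicate 3 had the narrowest spread of log2 ratios, with an interquartile range of 0.26 against 0.428 to 0.483 on the other 8 arrays. Its Cy5 signal was well above background at 69.7% of probe spots, against 58.0% to 65.8% on the others. Replicates 1 and 2 of every group were scanned on one day and replicate 3 of every group on another. Without HDC-M replicate 3, 38 probes passed in the average and 18 in each line, of which 22 and 12 were among the probes that passed with it. Without HDC-M replicate 1 only 3 probes passed in the average, and without HDC-M replicate 2 only 2. Galnt6 and 1700113H08Rik were the only probes that passed in the average whichever of the 9 arrays was left out. A fit that took scan day as a block called 41 probes in the average and 16 in each line, of which 31 and 14 were among the 48 and 32 above. The 14 were Enah, Gcnt1, Galnt6, Ddah1, Hdac9, Dock11, Inpp5f, Cpe, Tiam1, Camk2n2, Coro7, Eogt, Trnp1 and 1700113H08Rik. The 18 probes that no longer passed in each line include Ahr, Pdzrn3, Kit, Tg and Sytl2. Within the first scan day alone 6 probes passed in the average and 2 in each line, of which 3 and 1 were among the 48 and 32. The second day held 1 array a group.

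**Figure D1:**
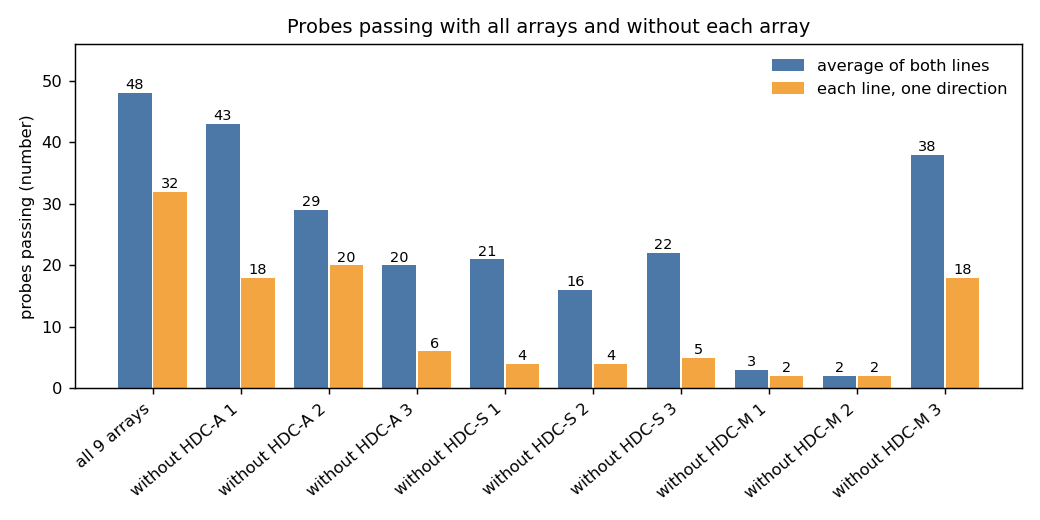
Number of probes that passed a limma adjusted p of 0.05 with all 9 arrays and with each array left out in turn, for the average of both lines against HDC-M (blue) and for each line in one direction (orange). The counts are 48 and 32 with all arrays and fall to 2 and 2 without HDC-M replicate 2.

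Among the genes with a role in transcription and chromatin, Ahr had the largest shared rise. The aryl hydrocarbon receptor is a transcription factor that is activated by small aromatic ligands. Its log2 ratios were 0.81, 1.41 and 1.20 in the HDC-A pools, 1.35, 1.82 and 1.33 in the HDC-S pools, and 0.34, 0.13 and 0.37 in the HDC-M pools. Every modified pool lay above every HDC-M pool. The difference on average was 1.04 (SE 0.15; limma adjusted p = 0.0397), made up of 0.86 in HDC-A and 1.22 in HDC-S. It was as large without HDC-M replicate 3, at 1.08, with an adjusted p of 0.0771, and with scan day as a block the adjusted p was 0.0621. In the list of genes of this receptor's pathway, 9 of 15 genes were measured and Ahr was the only one that passed. The next by p was Tiparp, a target of the receptor, at 0.24 (adjusted p = 0.204). Its partner Arnt, its repressor Ahrr and its target genes Cyp1b1 and Nqo1 were among the other 8 genes, whose differences ran from -0.15 to 0.24. Over the 9 genes the median difference was 0.03, against 0.008 over one probe for each of 13976 measured genes.

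Hdac9, a class IIa histone deacetylase, rose by 0.53 on average (limma adjusted p = 0.0155), with 0.55 in HDC-A and 0.52 in HDC-S. Its log2 ratios ran from 0.53 to 0.73 in the 6 modified pools and from 0.03 to 0.09 in the HDC-M pools. A second Hdac9 probe differed by only 0.04 (adjusted p = 0.88), so the 2 probes of this gene gave different readings. A probe described on the array as a histone H4 transcript (BC019757) rose by 0.64, with 0.79 in HDC-A and 0.48 in HDC-S. Histone H4 is encoded by many near-identical gene copies, so this probe cannot be tied to one of them. Mef2c, a transcription factor that class IIa deacetylases bind, passed on average (0.51) and in HDC-A (0.68), but not in HDC-S (0.33, adjusted p = 0.0738).

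Lmo1, a LIM-domain cofactor of transcription, had the largest average difference, 1.82, but the lines were far apart. In the HDC-S pools its log2 ratios were 2.92, 2.68 and 2.40, in the HDC-A pools 0.52, 0.31 and -0.11, and in the HDC-M pools -0.19, -0.54 and -0.37. The rise passed in HDC-S (3.03, 8.18-fold) and not in HDC-A (0.61, adjusted p = 0.129), so the average describes mainly HDC-S. Foxp2, a forkhead factor, and Hmga2, a chromatin protein of embryonic and tumour tissue, passed on average at 0.40 and 0.37. For both the difference lay in HDC-A, at 0.56 and 0.68, and was 0.24 and 0.06 in HDC-S, where neither passed. A second Hmga2 probe read only 0.19 in HDC-A (limma adjusted p = 0.675) and 0.09 in HDC-S.

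At the lower end, 1700113H08Rik had the smallest adjusted p of the whole comparison. Its log2 ratios were -0.90, -0.91 and -0.76 in HDC-A, -0.83, -0.87 and -0.90 in HDC-S, and 0.76, 0.70 and 0.36 in HDC-M. The modified pools lay below the culture reference and the HDC-M pools above it. On average it fell by 1.47 (SE 0.09; limma adjusted p = 0.000679), with -1.46 in HDC-A and -1.47 in HDC-S. HDC-S and HDC-A differed by -0.01, with a 95% interval from -0.24 to 0.22. The probe derives from a testis clone of a hypothetical protein and was named by that clone. Trnp1, a nuclear protein known from brain progenitor cells, fell by 1.27 (adjusted p = 0.0119), with -1.28 and -1.26 in the 2 lines. The Trnp1 log2 ratios were -1.13, -0.99 and -1.06 in HDC-A, -0.88, -1.06 and -1.18 in HDC-S and 0.26, 0.55 and -0.16 in HDC-M. The HDC-M pools spread widely here, and replicate 3 was the lowest of them.

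**Figure D2:**
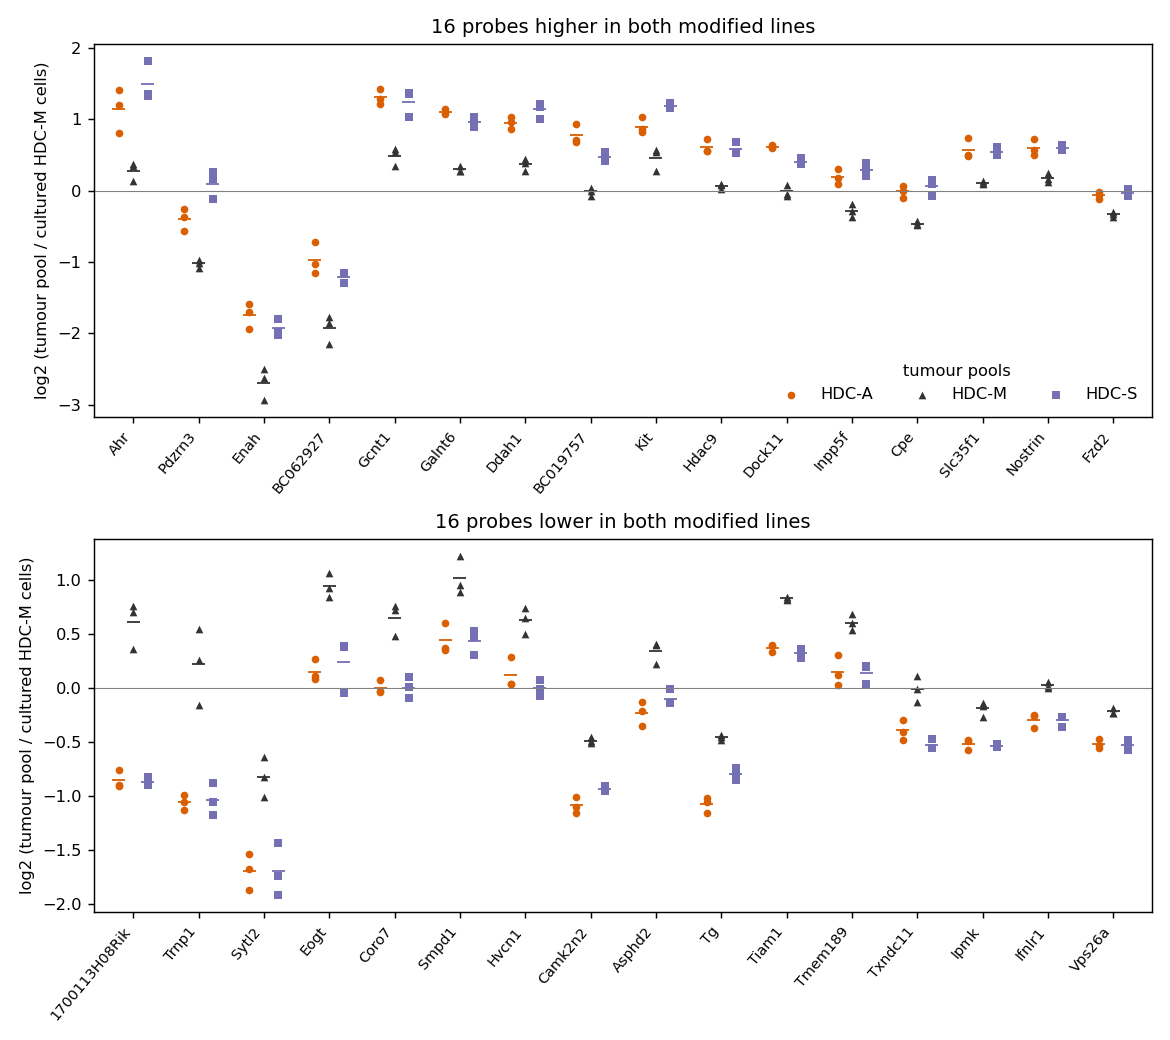
Log2 ratio of tumour pool over cultured HDC-M cells on each array at the 32 probes that passed in each line in one direction, 16 higher (top) and 16 lower (bottom), ordered by size. Circles are HDC-A pools, triangles HDC-M pools and squares HDC-S pools, with a short bar at each group mean, and at each of the 32 probes the HDC-M pools lie outside the range of the 6 modified pools.

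The 250 bases before the annotated start site are shown for 4 genes that moved in one direction in both lines, picked with their values known. Galnt6 and 1700113H08Rik passed whichever array was left out, and Enah and Trnp1 are among the largest differences. The sequences are from RefSeq on GRCm38.p6, written 5′ to 3′ on the gene's strand, with the letters GCGTG or their reverse complement CACGC in capitals where they occur. GCGTG is the core of the element that the aryl hydrocarbon receptor binds with its partner. Galnt6 and Enah rose, 1700113H08Rik and Trnp1 fell.
Galnt6, chr15:100729377-100729626, minus strand: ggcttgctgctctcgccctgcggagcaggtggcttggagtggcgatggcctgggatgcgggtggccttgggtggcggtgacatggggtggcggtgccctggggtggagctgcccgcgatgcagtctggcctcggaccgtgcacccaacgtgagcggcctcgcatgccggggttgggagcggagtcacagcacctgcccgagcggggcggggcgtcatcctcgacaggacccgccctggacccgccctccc
Enah, chr1:182019981-182020230, minus strand: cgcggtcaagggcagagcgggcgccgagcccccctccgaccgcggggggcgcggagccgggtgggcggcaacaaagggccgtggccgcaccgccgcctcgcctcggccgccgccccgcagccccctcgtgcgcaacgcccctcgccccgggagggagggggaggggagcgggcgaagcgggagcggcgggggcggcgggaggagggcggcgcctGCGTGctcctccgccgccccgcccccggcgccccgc
1700113H08Rik, chr10:87057796-87058045, plus strand: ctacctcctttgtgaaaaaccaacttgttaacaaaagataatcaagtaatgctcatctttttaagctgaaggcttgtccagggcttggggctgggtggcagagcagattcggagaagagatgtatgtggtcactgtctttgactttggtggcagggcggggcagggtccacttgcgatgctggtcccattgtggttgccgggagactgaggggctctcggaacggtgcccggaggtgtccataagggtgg
Trnp1, chr4:133498551-133498800, minus strand: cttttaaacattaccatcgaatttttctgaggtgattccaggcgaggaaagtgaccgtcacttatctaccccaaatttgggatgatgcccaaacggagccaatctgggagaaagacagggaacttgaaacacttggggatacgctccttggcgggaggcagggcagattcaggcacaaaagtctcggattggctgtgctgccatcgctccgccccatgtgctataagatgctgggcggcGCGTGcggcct

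Of the 30 genes that passed in each line, 22 had a promoter entry. GCGTG, read on both strands, stood before a start site of 13 of the 22 (59.1%), against 30.9% of 27025 genes. A gene with more than 1 promoter entry counted if any of them held the motif. The number of entries a gene has was not matched, and over single entries the share was 28.2% of 32851. The promoters of the 22 genes were also richer in G and C, with a median of 63.8% against 52.4% over all genes. The 13 were Asphd2, Coro7, Ddah1, Dock11, Enah, Gcnt1, Inpp5f, Kit, Pdzrn3, Tiam1, Trnp1, Txndc11 and Vps26a, 7 of which rose and 6 of which fell. CATGTG, letters bound by the melanocyte factor MITF, stood before 3 of the 22 (13.6%) against 13.8% of all genes, and the palindrome CACGTG before 1 (4.55%) against 6.86%. A match is a description of the letters, not a site or a cause.

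Enzymes that build O-linked sugars on proteins held members in both directions. Galnt6, which starts mucin-type chains by adding N-acetylgalactosamine to serine or threonine, had log2 ratios of 1.14, 1.11 and 1.07 in HDC-A, 1.03, 0.89 and 0.98 in HDC-S and 0.34, 0.28 and 0.27 in HDC-M. The 3 groups were tight and the HDC-M pools lay far below the others. The rise was 0.74 (SE 0.05; limma adjusted p = 0.000978), 0.81 in HDC-A and 0.67 in HDC-S. A second Galnt6 probe read 0.23 (adjusted p = 0.2). Gcnt1, which adds the branch that makes core 2 O-glycans, read 1.22, 1.43 and 1.29 in HDC-A, 1.04, 1.37 and 1.35 in HDC-S and 0.54, 0.58 and 0.34 in HDC-M. No modified pool overlapped HDC-M, and the rise was 0.80 (adjusted p = 0.0163). The other 2 Gcnt1 probes read 0.05 and 0.17 and did not pass.

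Eogt, an enzyme of the endoplasmic reticulum that puts N-acetylglucosamine on EGF-like repeats, went the other way. It read 0.08, 0.11 and 0.27 in HDC-A, -0.05, 0.38 and 0.39 in HDC-S and 0.84, 0.93 and 1.06 in HDC-M, a fall of 0.75 on average (limma adjusted p = 0.0363). Gxylt2, which extends O-glucose on such repeats with xylose, fell by 0.97 on average. The fall was -1.50 in HDC-A and only -0.45 in HDC-S, where it did not pass (adjusted p = 0.172). In the list of O-glycosylation enzymes 29 of 35 genes were measured, of which 2 rose and 1 fell, while 0.279% of all genes passed. The list was written with earlier results of these data known, so nothing is read from this count. The list's median difference was 0.03, below 0 under median centring. Gxylt2 was not on that list.

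Of the genes that act at the cell surface and in signalling, Kit rose. Kit is the receptor tyrosine kinase for stem cell factor, on which melanocytes and mast cells depend. The pools read 0.86, 0.82 and 1.03 in HDC-A, 1.18, 1.23 and 1.16 in HDC-S and 0.54, 0.57 and 0.28 in HDC-M. The HDC-S pools were the highest, the HDC-A pools lay between, and no group overlapped another. The difference was 0.58 (SE 0.08; limma adjusted p = 0.0342), and without HDC-M replicate 3 it was 0.49 (adjusted p = 0.0519). The Kit probe's reference signal was near that of the negative controls, so the denominator of its ratio was at background. In the list of receptor tyrosine kinases 24 of 25 genes were measured and Kit was the only one that passed. The next by p, Erbb3, was at 1.11 in HDC-A and 0.06 in HDC-S and did not pass on average (0.59, adjusted p = 0.143). Of the mast cell and basophil list, to which Kit also belongs, 9 of 14 genes were measured, Kit alone passed and the list's median was -0.03.

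Pdzrn3, a ubiquitin ligase that acts on cell junctions and receptors, rose by 0.87 (limma adjusted p = 0.0119). It read -0.26, -0.37 and -0.56 in HDC-A, 0.16, -0.12 and 0.26 in HDC-S and -1.01, -1.09 and -0.97 in HDC-M, so that the lines did not overlap and HDC-S stood above HDC-A. Inpp5f, a phosphatase of inositol lipids, rose by 0.52, but its second probe, well above background on 3 arrays, read -0.01 (adjusted p = 0.968). Fzd2, a Wnt receptor, rose by 0.27 in HDC-A and 0.30 in HDC-S, each just past the threshold. Ipmk, a kinase of soluble inositol phosphates, fell by 0.32 and 0.34 in the 2 lines, while its average missed the threshold (adjusted p = 0.0511). The other 3 Ipmk probes read -0.31 (adjusted p = 0.146), -0.08 and -0.06. Camk2n2, an inhibitor of a calcium-dependent kinase, fell by 0.53 (adjusted p = 0.00856), and Ifnlr1, the receptor chain for lambda interferons, by 0.32 in each line. Rgs16, which shortens signals of G protein-coupled receptors, passed on average (0.68) and in HDC-A (0.77), but not in HDC-S (0.58, adjusted p = 0.0678).

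Genes of actin and of the small GTPases that steer it were split. Enah extends actin filaments at the leading edge of moving cells. The probe read -1.59, -1.94 and -1.70 in HDC-A, -1.98, -2.02 and -1.80 in HDC-S and -2.63, -2.93 and -2.50 in HDC-M. All tumours were far below the culture reference, and the HDC-M tumours were the lowest. The difference was 0.85 (SE 0.11; limma adjusted p = 0.0306), and a second probe, described on the array as the enabled homolog (BC062927), also passed, at 0.84. Dock11, which activates the GTPase Cdc42, rose by 0.53 (adjusted p = 0.0108) at a probe named through a RIKEN clone. The probe with the gene's RefSeq accession read 0.16 (adjusted p = 0.299). Tiam1, which activates Rac, read 0.33, 0.40 and 0.39 in HDC-A, 0.36, 0.32 and 0.28 in HDC-S and 0.84, 0.81 and 0.82 in HDC-M. Its groups were tight, the modified pools lay wholly below HDC-M, and the fall was 0.48 (adjusted p = 0.00856). Coro7, a coronin of the Golgi, fell by 0.65, equally in both lines. Arhgap31, which switches off Rac and Cdc42, passed on average (-0.34) and in HDC-S (-0.45), not in HDC-A (-0.24, adjusted p = 0.0789), and its second probe read 0.06. In the list of actin regulators 25 of 27 genes were measured, Enah alone passed, and the next by p was Limk1, a kinase of cofilin, at -0.20 (adjusted p = 0.222). Smtnl2, a smoothelin-like protein, passed on average at 1.48, with 1.93 in HDC-S and 1.02 in HDC-A, where the adjusted p was 0.0789.

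In the pigment cell genes the direction was mostly down and few members passed. Of the melanocyte and pigmentation list 18 of 20 genes were measured, and 17 of the 18 were well above background on all 9 arrays. Kit rose and Oca2 fell, and 15 of the 18 were lower on average, 11 of them in each line. Of the 18, 9 had an unadjusted limma p under 0.05, against 15.2% of all genes. The list's median was -0.15 against 0.008 over all genes, and -0.56 under median centring, where the median of all probes was -0.117. Oca2, a melanosomal membrane protein whose loss causes albinism, read 0.10, 0.04 and 0.10 in HDC-A, -0.47, -0.37 and -0.76 in HDC-S and 0.39, 0.69 and 0.37 in HDC-M. The fall was 0.71 on average (limma adjusted p = 0.0360) and passed in HDC-S (-1.02) but not in HDC-A (-0.41, adjusted p = 0.113). Dct, the dopachrome tautomerase of melanin synthesis, had 2 probes that did not agree. The probe that passed read -0.88 in HDC-A and -0.06 in HDC-S, where the pools overlapped HDC-M. The brighter Dct probe, which was saturated on all 9 arrays and stood for Dct in the list, read 0.12.

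Of the granule transport genes, Sytl2 alone passed, with a fall. It encodes a synaptotagmin-like protein that binds Rab27a and tethers melanosomes and other granules to the plasma membrane. The pools read -1.54, -1.68 and -1.87 in HDC-A, -1.92, -1.44 and -1.74 in HDC-S and -1.01, -0.83 and -0.64 in HDC-M. The fall was 0.87 in each line (SE of the average 0.12; limma adjusted p = 0.0363), and the 95% interval of the difference between the lines ran from -0.32 to 0.31. With scan day as a block the adjusted p was 0.0567. That list had 21 measured genes of 25 and a median of -0.02, and 4 had an unadjusted p under 0.05, near the 15.2% of all genes. Rab27a itself was at -0.31 (adjusted p = 0.155), with 1 HDC-A spot left out as an outlier.

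**Figure D3:**
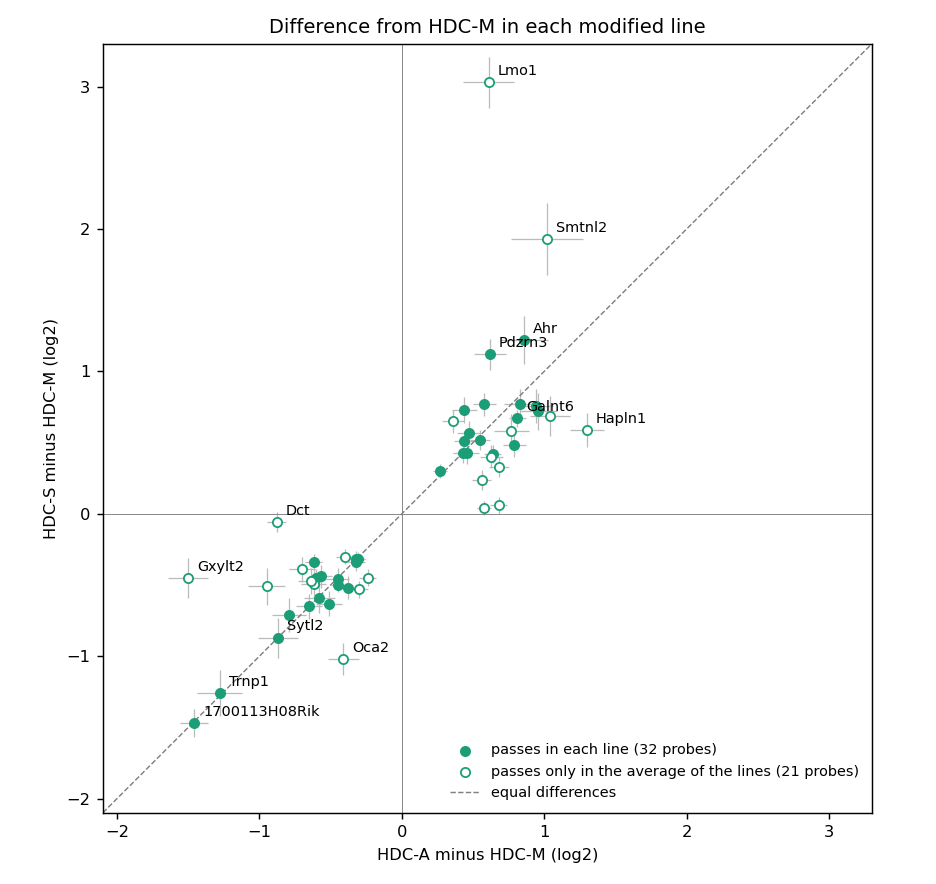
Difference from HDC-M in HDC-A (x axis) and in HDC-S (y axis), log2 scale, for the 53 probes that passed in each line (filled) or only in the average of the lines (open), with standard errors as grey bars and a dashed line of equal differences. The filled points, among them 1700113H08Rik at -1.46 and -1.47, mostly lie near the line, with Pdzrn3 at 0.62 and 1.12 away from it, as are open points such as Lmo1 at 0.61 and 3.03.

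Several members belong to the lysosome, to vesicles and to secreted products. Smpd1, the acid sphingomyelinase of the lysosome, fell by 0.58 in HDC-A and 0.59 in HDC-S, and its average missed the threshold (limma adjusted p = 0.0529). Dpp7, a lysosomal dipeptidase, passed on average at -0.56 and in HDC-A alone. Vps26a, a retromer subunit that returns receptors from endosomes, fell by 0.31, and Hvcn1, a voltage-gated proton channel, by 0.57. Cpe, carboxypeptidase E of secretory granules, rose by 0.48, and its second probe had a value on only 1 HDC-M array, -0.74, against -0.36 to -0.12 in the modified pools. Tg, the thyroid hormone precursor thyroglobulin, is not known for a role in melanoma. It read -1.16, -1.06 and -1.02 in HDC-A, -0.85, -0.81 and -0.74 in HDC-S and -0.44, -0.46 and -0.48 in HDC-M, a fall of 0.48 (adjusted p = 0.0119). A second Tg probe read -0.44 (adjusted p = 0.0529). Hapln1, which links hyaluronan to proteoglycans of the matrix, read 1.83, 1.43 and 1.56 in HDC-A, 0.96, 0.73 and 1.01 in HDC-S and 0.41, 0.35 and 0.17 in HDC-M. It passed on average (0.94) and in HDC-A (1.30), not in HDC-S (0.59, adjusted p = 0.0652), and its second probe read 1.30 (adjusted p = 0.0513).

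Ddah1, which breaks down a methylated arginine that inhibits nitric oxide synthases, rose by 0.67 (limma adjusted p = 0.0119). Its log2 ratios ran from 0.86 to 1.22 in the 6 modified pools and from 0.27 to 0.45 in HDC-M. Nostrin, which binds the endothelial nitric oxide synthase and moves it from the membrane, rose by 0.43, equally in both lines. Slc35f1, a putative transporter, rose by 0.45. Txndc11, a thioredoxin-domain protein of the endoplasmic reticulum, fell by 0.45, Tmem189, which makes plasmalogen lipids, by 0.45 in HDC-A and 0.46 in HDC-S, and Asphd2, related to aspartyl hydroxylases, by 0.51. Of the remaining probes that passed only on average, Pelo, a ribosome rescue factor, was at 0.31 and an unnamed pair of transcripts (AK079320 and TC1480345) at 0.52 and 0.50. Art5, an ADP-ribosyltransferase, was at -0.73, N6amt1, a methyltransferase, at -0.55, 1700019D03Rik at -0.55, and Lrpprc, which keeps mitochondrial RNAs stable, at -0.41. Rcbtb1 was at -0.35, with 1 HDC-A array left out there as an outlier spot. Pelo read 0.58 in HDC-A and 0.04 in HDC-S, so its average describes HDC-A.

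How alike the lines were was measured at each member. At the 32 probes that passed in each line, the smaller of the 2 differences was a median of 0.88 of the larger, with a range from 0.544 to 1. HDC-S and HDC-A also differed from each other at 2 of the 32, Pdzrn3 and Tg, and at 9 of the 21 that passed only in the average, while 5.26% of all probes did. The ratio of smaller to larger was not part of the call, but passing in each line favours equal sizes. Of the 21, HDC-A alone passed at 15 and HDC-S alone at 6. Of the 53 probes, the HDC-M tumours were nearer to the culture reference than the modified tumours at 35 (66.0%), against 60.9% of all probes. The reference was itself HDC-M RNA, and HDC-M replicate 3 had the narrowest spread of log2 ratios. These shares were not taken without that array.

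A second probe gave a weaker reading for most of these genes. For 19 genes, 22 further probes were kept, of which 18 had the same sign as the probe that passed and 11 an unadjusted limma p under 0.05. Probes that passed were left out of the 22, so none of them could pass, which favours weaker readings. The second Enah probe (BC062927), which passed, carries no symbol and was not counted. Of the 22, the 4 of opposite sign were those of Arhgap31, Dct, Inpp5f and Lrpprc. All 53 probes were well above background on all 9 arrays in the Cy5 channel and none was saturated. At 11 of them the Cy3 reference signal stayed under 1.5 times the median of the negative controls on every array, so those ratios rest mainly on Cy5. The 11 include Hdac9, Ddah1, Kit, Nostrin, Slc35f1, Ifnlr1, Asphd2, Hapln1, Smtnl2 and Foxp2. In the Cy5 channel alone 12 probes passed on average, 7 of them among the 53, and 3 passed in each line. All 53 kept their sign there.

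Hdc RNA was measured by 1 probe. Its log2 ratios were 0.15, 0.15 and 0.42 in HDC-A, 0.44, 0.33 and 0.61 in HDC-S and 0.60, 0.48 and 0.06 in HDC-M. The 3 groups overlapped, and HDC-M held both a high and the lowest value. The difference of the modified lines from HDC-M was -0.03 (SE 0.12; limma adjusted p = 0.939), with a 95% interval from -0.31 to 0.24. This average joins the line of lower and the line of higher histamine capacity, and the single differences were -0.14 in HDC-A (adjusted p = 0.696) and 0.08 in HDC-S (adjusted p = 0.864). HDC-S was above HDC-A by 0.22 (adjusted p = 0.463). In Cy3 the probe read between 0.97 and 1.05 times the negative controls' median, so the reference was at background. Of the histamine list 6 of 12 genes were measured, none passed the limma adjusted p, 1 had an unadjusted p under 0.05, near the 15.2% of all genes, and their differences ran from -0.10 to 0.16. Hrh3, a histamine receptor, was at 0.16 (adjusted p = 0.294) and Hrh2 at -0.10 (adjusted p = 0.409).

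Marker lists of other cell types held no member that passed the limma adjusted p apart from Kit. The keratinocyte list was lower on average at all 13 measured genes of 17, and at 12 of them in each line. Of the 13, 5 had an unadjusted limma p under 0.05, against 15.2% of all genes. The list's median was -0.95, with -0.56 in HDC-A and -1.42 in HDC-S. The median moved to -1.65 when HDC-M replicate 3 was left out. When HDC-M replicate 1 was left out it moved to -0.62, and 10 genes were lower and 2 higher. Krt10, a keratin of the upper epidermis, read 3.33, 3.79 and 2.12 in HDC-A, 0.17, 2.57 and 1.13 in HDC-S and 4.15, 3.50 and 3.27 in HDC-M, so the groups overlapped (-1.46; limma adjusted p = 0.267). Lor, the envelope protein loricrin, was at -1.76 (adjusted p = 0.275). The mean log2 ratio of the list on an array ran from 1.07 to 2.29 in HDC-A, 0.08 to 1.35 in HDC-S and 1.49 to 2.96 in HDC-M. The part of skin RNA in the differences above was not tested.

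The macrophage list was higher on average at all 20 measured genes of 21, and at 18 of them in each line. Of these genes, 0 had an unadjusted limma p under 0.05. The list's median was 0.33, but this was 0.02 without HDC-M replicate 3. Its mean per array ran from 1.72 to 2.56 in HDC-A, 1.96 to 2.38 in HDC-S and 1.24 to 2.25 in HDC-M, and the 1.24 belonged to HDC-M replicate 3. Mrc1, a mannose receptor of macrophages, was at 0.60 (limma adjusted p = 0.39) and Arg1, an arginase, at 0.43 (adjusted p = 0.424). The granulocyte list had 4 measured genes of 14, 2 higher and 2 lower, 0 with an unadjusted p under 0.05, and a median of -0.41. That median was -0.07 without HDC-M replicate 1 and -0.89 without HDC-M replicate 3. Its S100a9 probe read 5.10, 3.57 and 0.20 in the HDC-M pools, and was at -1.74 (adjusted p = 0.481). The skeletal muscle list had a median of 0.30, but 0.70 in HDC-A and -0.16 in HDC-S, so the lines did not share it. Whether other cells in the tumours bear on the called genes was not tested.

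**Figure D4:**
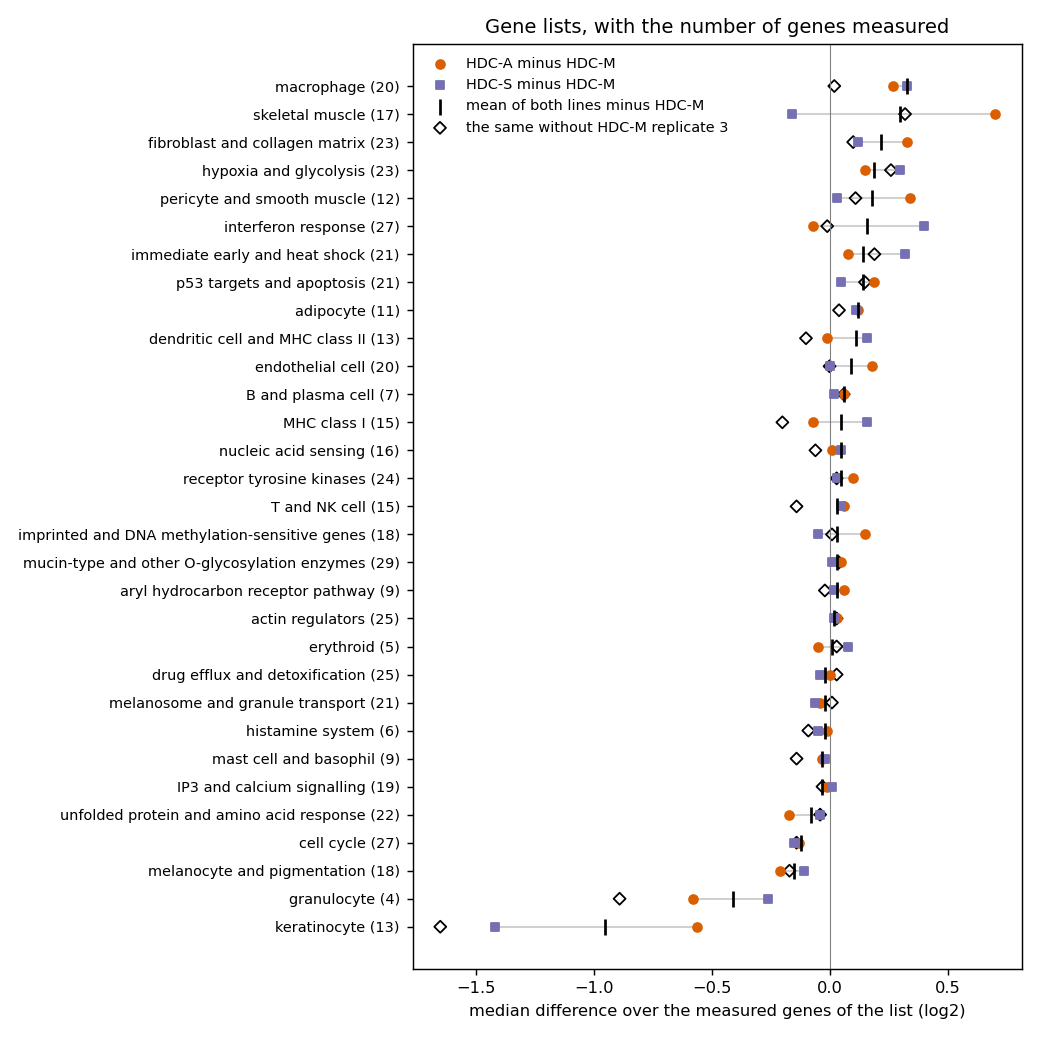
Median difference from HDC-M over the measured genes of each of 31 gene lists, log2 scale, in HDC-A (circles), in HDC-S (squares), in the mean of both (vertical bars) and in that mean without HDC-M replicate 3 (diamonds). The keratinocyte list is lowest at -0.95, and the macrophage list moves from 0.33 to 0.02 without HDC-M replicate 3.

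Of 524 measured genes on the 31 lists, 5 rose (Ahr, Enah, Galnt6, Gcnt1 and Kit) and 3 fell (Eogt, Oca2 and Sytl2), or 1.53% against 0.279% of all genes. Since the lists were written with earlier results of these data known, nothing is read from this share. Cell-state lists with one-sided signs had no member that passed the limma adjusted p. The p53 and apoptosis list was higher on average at 18 of 21 genes, 12 of them in each line. Of its genes 7 had an unadjusted limma p under 0.05, and its median of 0.14 turned sign under median centring. The interferon list was higher at 25 of 27 genes, but at 9 in each line, and 0 had an unadjusted p under 0.05. Its median of 0.16 was -0.01 without HDC-M replicate 3. The hypoxia and glycolysis list was higher on average at all 23 measured genes, and at 16 of them in each line. Of the 23, 6 had an unadjusted limma p under 0.05, against 15.2% of all genes. The list's median was 0.19, with 0.15 in HDC-A and 0.30 in HDC-S. Its sign turned under median centring and under scaling between arrays. Adm, the hypoxia-induced peptide adrenomedullin, was at 1.09 (limma adjusted p = 0.2) and Tpi1, a glycolytic enzyme, at 0.22 (adjusted p = 0.213). The cell cycle list was lower on average at 23 of 27 genes, and at 14 of them in each line. Of the 27, 8 had an unadjusted limma p under 0.05, against 15.2% of all genes, and the list's median was -0.12. It kept its sign under each alternative, but the median was -0.53 under median centring, where the median of all probes was -0.117, and -0.46 under scaling between arrays. Mcm3, a subunit of the replication helicase, was at -0.22 (adjusted p = 0.207) and Cdk1, the kinase of mitotic entry, at -0.30 (adjusted p = 0.208).

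In the unfolded protein list 22 of 23 genes were measured and 15 were lower on average, 10 of them in each line. The list had a median of -0.08, whose sign turned under scaling between arrays. Its lowest p belonged to Dnajc3, a co-chaperone of the endoplasmic reticulum, which read -0.67, -0.64 and -0.76 in HDC-A, -0.87, -0.80 and -0.73 in HDC-S and -0.38, -0.45 and -0.46 in HDC-M. No modified pool overlapped HDC-M, yet the difference of -0.32 missed the threshold (limma adjusted p = 0.0633). Sdf2l1, another protein of that compartment, was at -0.33 (adjusted p = 0.0772).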

How the data were processed

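RNA of 9 tumour pools was measured on 2-colour Agilent mouse arrays. The deposited scanner output gives, for both dyes, a mean intensity and a median local background per spot, from Feature Extraction 8.5.1.1 per the file headers. Other deposited columns, per the file headers, mark spots as well above background, saturated, outlier or control. The value table that the authors deposited is on a log10 scale and matches the scanner's log10 ratio of Cy5 over Cy3 at all 43790 spots. The genome build of the array was not given in the sources used here, so no probe coordinates are printed.

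Mean signals were corrected with normexp (offset 50) and normalised within arrays by loess in limma 3.58.1 (R 4.3.3). Control and outlier spots did not weigh in the loess fit and were dropped, and spots of a probe were averaged. Probes well above background in Cy5 on at least 3 of 9 arrays were kept, and 14303 were left out. The log2 ratios of all 9 arrays were fitted in one model with 3 groups and no block (lmFit, eBayes), with contrasts of the mean of HDC-A and HDC-S with HDC-M, of each line with HDC-M, and between the lines. The Benjamini-Hochberg adjustment took in every probe tested, and the threshold was 0.05. The precision is limited by 3 arrays a group, and p-values measure the spread between pools of different tumours of 1 variant.

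Accessions named 22064 probes and other accessions 135, descriptions 611, synonyms 490, RIKEN clones 3165 and shared Ensembl transcripts 32, through RefSeq gene tables of the mouse, and 14677 had no symbol. The brightest probe stood for a gene in the 31 lists, of which 524 of 619 distinct genes were measured. Members, lists, tests and promoters were chosen with earlier results of these data known. The text names genes that passed in each line, the largest average differences whose arrays do not overlap HDC-M, the histamine genes, and list members that pass or have the smallest p, the last only for some lists, for length. In data simulated for 25751 probes, the average recovered 74% of probes changed by 0.5 and 96% of those changed by 1, with 6.08% false calls. The call in each line recovered 58% and 94%, with 1.94% false calls. The simulated errors were normal, independent between arrays and of one spread per probe, and both lines changed by the same amount. The real arrays depart from this, as HDC-M replicate 3 does in its spread, so these are not error rates of the calls above. Alternatives covered background correction, the deposited ratios, centring, scaling, the Cy5 channel alone, filters, outlier spots, array weights, blocks and each array left out. One gene that the rule names is not reported here.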

Additional observations from a re-analysis of the deposited data

Results flagged for a closer look

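At 11 of the 53 probes the response of the 2 modified lines was itself different, by limma's test of HDC-S against HDC-A over all probes (adjusted p under 0.05). Of the 11, 9 passed only in the average, and only Pdzrn3 and Tg passed in each line. At the 9, 1 line passed against HDC-M and the other did not: HDC-S alone passed at Lmo1 and Oca2, and HDC-A alone at Dct, Gxylt2, Hapln1, Hmga2, Pelo, Mef2c and Foxp2. Lmo1 was higher in HDC-S than in HDC-A by 2.43 on the log2 scale (adjusted p = 0.00152), and Pdzrn3 by 0.50 (adjusted p = 0.0322). Dct was lower in HDC-A, with HDC-S above it by 0.81 (adjusted p = 0.00234), as were Gxylt2, with HDC-S above it by 1.05 (adjusted p = 0.00645), and Tg, by 0.28 (adjusted p = 0.0296). HDC-S stood below HDC-A at Hapln1 (-0.71, adjusted p = 0.0124), Hmga2 (-0.62, adjusted p = 0.0033) and Pelo (-0.54, adjusted p = 0.00234). The same direction was seen at Oca2 (-0.62, adjusted p = 0.0171), Mef2c (-0.35, adjusted p = 0.0251) and Foxp2 (-0.33, adjusted p = 0.0275). Second probes did not show the difference at Hmga2 (-0.09, adjusted p = 0.851) or Dct (0.0, adjusted p = 0.995, saturated on all 9 arrays). They had the same direction at Hapln1 (-0.99, adjusted p = 0.0425), Pelo (-0.54, adjusted p = 0.00485) and Tg (0.29, adjusted p = 0.0759). Every HDC-S pool lay on one side of every HDC-A pool at each of the 11, which the choice of these probes by this contrast favours. The cause of these differences was not tested.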

How the results depend on the processing

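The count in the average contrast was 48, that in each line 32, that of probes with a difference between the lines 11 and that of list genes 8. Without background correction the first rose to 100 and list genes to 16. With the deposited ratios, from the scanner or the authors' table, the counts were 3, 3, 6 and 1. Median centring gave 2, 1, 1 and 0 (95 list genes at an unadjusted limma p under 0.05) and moved the median of all probes to -0.117. Scaling between arrays gave 7 in each line and 4 between lines. The Cy5 channel alone gave 12, 3, 5 and 3. Array weights gave 214, 69 and, for list genes, 17. A 2-group fit gave 14 and 5 list genes, and the stricter test in each line 2. The first scan day alone gave 6, 2, 1 and 0 (97 list genes at an unadjusted limma p under 0.05), and scan day as a block 16 in each line. Leaving out each array in turn gave 2 to 43, 2 to 20, 7 to 11 and 1 to 6. Of the calls in the average 54.2% were higher, against 33.3% with the deposited ratios, 0% under median centring and 47.4% to 66.7% leaving out an array. Deviations of same-numbered arrays correlated at 0.107 to 0.548 between HDC-A and HDC-S and at -0.189 to 0.151 with HDC-M. Not every pair was above 0.1, so the numbers were not taken to pair the arrays, although replicate 3 of each group shares a scan day. With the replicate number as a block, 34 probes passed in the average and 16 in each line, of which 22 and 13 were among the 48 and 32.

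Few values turned sign: Hdc to 0.077 and 0.016 without HDC-M replicates 1 and 2 (-0.193 to 0.077 leaving out each array) and to 0.077 in HDC-S alone, Pelo to -0.142 and Tiparp to -0.17 under median centring, Tpi1 to -0.278 there and -0.184 under scaling, Sdf2l1 to 0.007 under scaling, and Rab27a to 0.435 in the authors' table and 0.429 with outlier spots kept. The called probes kept their sign without each array, which at 50 of the 53, all but Hmga2, Pelo and Dct, non-overlapping groups fix in advance. The causes of these changes were not tested.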
